A study of Mus musculus with 14 samples.

Results

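The comparison described here is that of 3 double conditional knockout libraries (dcKO) with 3 floxed control libraries (ff) from the mouse telencephalon at E12.5 (E, day of gestation), 6 of the 14 libraries of the series. Libraries were taken by the genotype word in the names of the E12.5 table columns, and all 17853 genes that passed a filter on low counts were tested. The dcKO animals carried floxed alleles of both Sbno1 and Trp53 together with the Emx1-Cre driver line. The ff animals are labelled only as floxed, and no library with the driver alone or with 1 deleted gene was among the samples, so what the driver, the loss of Sbno1 and the loss of Trp53 each do cannot be told apart. The other 8 libraries, 4 dcKO and 4 ff, came from cerebral cortex at E18.5 and are used only where named. Libraries are called by their genotype and the number in the sample title (ff 9, dcKO 2). The labels do not say that each library is 1 embryo, so the p-values measure the spread between these samples.

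At this stage the dorsal telencephalon is mostly a neuroepithelium. Apical progenitors divide at the ventricle, give rise to intermediate progenitors marked by Eomes, and produce the first deep-layer, subplate and Cajal-Retzius neurons. Sbno1 is related to strawberry notch, a fly gene first tied to Notch signalling. The product of Trp53 is p53, a transcription factor that stops the cell cycle or starts cell death after damage and stress. Emx1 is a homeobox gene of dorsal progenitors, so a driver under its control acts in the cortical lineage and spares ventral telencephalon, vessels, blood and meninges, all of which a whole telencephalon holds. In bulk RNA, fewer cells of a type and less RNA per cell cannot be told apart.

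The 6 libraries differed in more than genotype. Library ff 9 held 4.92 M expected counts and the other 5 held 42.0 to 67.4 M. Library ff 7 came from a female by Xist and chromosome Y genes, and the other 5 from males. Emx1, Eomes and Tbr1, which mark dorsal telencephalon, were detected in all 6 libraries, with values given below.

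Libraries dcKO 6 and dcKO 10 held RNA of the eye. The summed level of 14 lens genes was 1090 and 1110 TPM (the deposited level per transcript length) in them, and 4.84 to 7.34 TPM in the other 4 libraries, dcKO 2 included. Cryaa, which encodes the lens chaperone alpha A-crystallin, was at 392 and 384 TPM in these 2 libraries and at 0 to 0.03 TPM in the other 4. Of the 14 lens genes, 11 were over 5-fold above every other library in both. Genes of retina (21.1 and 22.5 against 1.11 to 3.8 TPM) and of pigment cells (18 and 19.3 against 0.96 to 3.18 TPM) were high in the same 2 libraries. Muscle genes were at 20.8 and 21.9 TPM there and at 22.3 TPM in ff 4, against 0.84 to 2.51 TPM in the other 3.

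**Figure D1:**
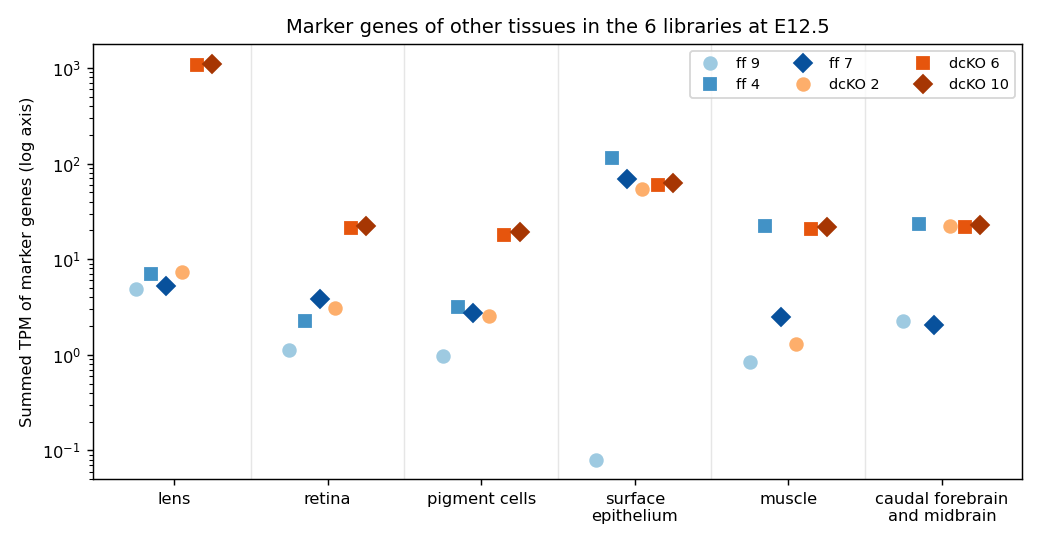
Summed TPM of marker genes of 6 other tissues (horizontal axis) in each E12.5 library (symbols, log vertical axis), with marker sets chosen after the data were seen. Lens genes reach 1090 and 1110 TPM in dcKO 6 and dcKO 10 and stay at 7.34 TPM or below in the other 4 libraries.

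The other marker sets divided the libraries in other ways. A set of 5 genes of caudal forebrain and midbrain, Barhl1 among them, summed to 21.9 to 23.4 TPM in all dcKO libraries and in ff 4, and to 2.25 and 2.06 TPM in ff 9 and ff 7. Keratins and other surface epithelium genes were at 0.08 TPM in ff 9, with 7 of 8 at 0, and at 53.8 to 116 TPM elsewhere. Libraries dcKO 6 and dcKO 10 were also closer to each other than any other pair: over 8636 genes with a mean of at least 20 CPM (counts per 1e+06 counts, scaled by TMM), the SD of their log2 ratios was 0.0873, against 0.218 to 0.407 in the other 14 pairs. By the same SD, dcKO 2 was about as close to ff 4 (0.22) as to dcKO 6 (0.218) and dcKO 10 (0.231). The counts of dcKO 6 and dcKO 10 differed by 4 times the sampling variance (chi-square over its degrees of freedom), against 20.9 to 70.5 times in the other pairs. Preparations from a single pool or dissection can also differ by more than sampling variance, so this value does not show that the 2 libraries are separate samples. The labels list them as 2 samples, and they were entered as such. Summed to 1 sample, they left 0 edgeR calls (1762 genes at an unadjusted p under 0.05). Results are therefore also given for dcKO 2 against the 3 ff libraries. The part that the other tissues and this likeness play in the results was not tested.

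With edgeR's quasi-likelihood test, 34 of 17853 genes (0.19%) had a Benjamini-Hochberg adjusted p under 0.05. Of these, 27 (0.151% of the genes tested) were lower in dcKO and 7 (0.0392%) were higher. The median log2 fold change was -0.79 among the lower and 0.59 among the higher genes. The lower genes included the transcription factors Emx1, Eomes, Sall1, Fezf2, Tbr1, Nfia, Nfib and Nfix, the replication fork gene Timeless and the proliferation marker Mki67. At an unadjusted p under 0.05, 1986 genes (11.1%) were lower and 1447 (8.11%) were higher. On the same counts DESeq2 called 912 genes lower (5.11%) and 297 higher (1.66%), and limma-voom 149 lower (0.835%) and 56 higher (0.314%).

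In all 34 genes the dcKO and ff libraries did not overlap, against 26.8% of all genes tested (13.5% higher and 13.2% lower). The same libraries chose the 34 genes, so this is a description. In 23 of the 34, dcKO 2 lay between the ff libraries and both of dcKO 6 and dcKO 10. The share of all genes tested with this order was not counted, so this too is a description. Fitted without dcKO 6 and dcKO 10, no gene passed the threshold with edgeR (362 at an unadjusted p under 0.05), with DESeq2 21 did and with limma-voom 0. In that fit the medians of the lower and the higher genes were -0.63 and 0.58, with dcKO 2 among the libraries that chose them. With dcKO 6 or dcKO 10 left out singly, or the 2 summed to 1 sample, edgeR also called 0 genes, DESeq2 243, 272 and 291, and limma-voom 0, 2 and 0, with 1790, 1723 and 1762 genes at an unadjusted edgeR p under 0.05.

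**Figure D2:**
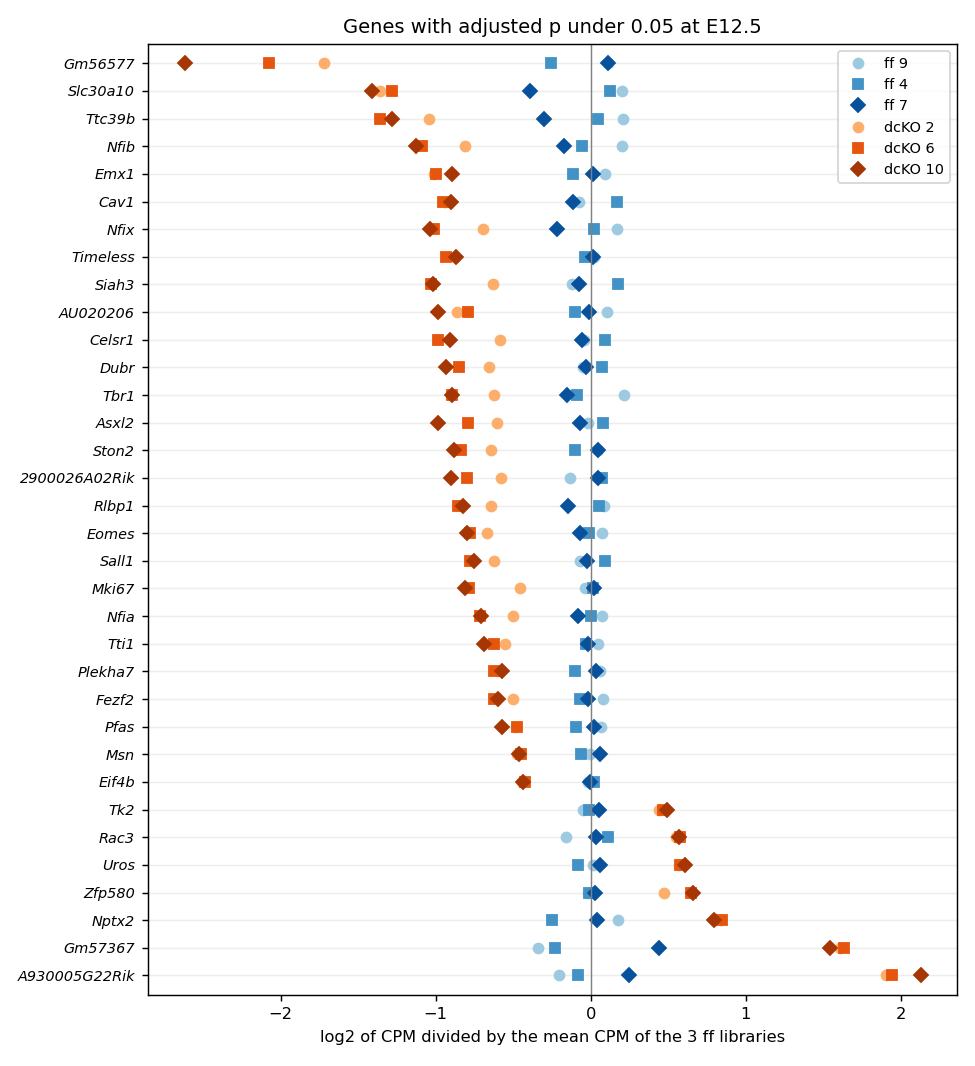
The 34 genes with adjusted p under 0.05 (rows), with the log2 of each library's CPM over the mean CPM of the 3 ff libraries on the horizontal axis and 1 symbol per library. The dcKO symbols lie apart from the ff symbols in all 34 genes, and dcKO 2 lies between ff and the other dcKO libraries in 23.

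Sbno1 was lower in dcKO without passing the threshold. It was at 108, 113 and 95.2 CPM in ff 9, ff 4 and ff 7 and at 76.6, 68.6 and 65.4 CPM in dcKO 2, dcKO 6 and dcKO 10, and the groups did not overlap. The log2 fold change was -0.59 (SE 0.09, edgeR adjusted p = 0.0505), and 9 of 21 alternative fits called it. Trp53 was at 106, 127 and 135 CPM in ff and at 103, 108 and 106 CPM in dcKO, where ff 9 lay within the dcKO range (log2 fold change -0.23, SE 0.09, edgeR adjusted p = 0.218). The counts are summed over whole genes, and reads from a floxed allele outside the deleted exons, and from cells the driver does not reach, are part of both values.

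Emx1 fell by 0.96 on the log2 scale (SE 0.08, edgeR adjusted p = 0.00833). It was at 66.4, 57.6 and 63.0 CPM in ff 9, ff 4 and ff 7 and at 31.0, 31.2 and 33.6 CPM in dcKO. The 3 dcKO libraries were alike and lay far under every ff library. Emx1 (chr6:85187438-85204462 in GRCm38, plus strand) is also the locus that gives the driver its name, and 16 of 21 alternative fits called it. Emx2, its relative in the same progenitors, differed by -0.02 (SE 0.11, edgeR adjusted p = 0.955).

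Genes of DNA replication and of mitosis were lower in dcKO as lists, with few single calls. Timeless, whose product stabilises replication forks together with Tipin, had the lowest p of all genes. Its level was 63.5, 61.1 and 63.3 CPM in ff 9, ff 4 and ff 7 and 34.1, 32.7 and 34.3 CPM in dcKO 2, dcKO 6 and dcKO 10. Each group was narrow, and dcKO 2 did not differ from the other dcKO libraries in this gene. The log2 fold change was -0.89 (SE 0.07, edgeR adjusted p = 0.00635), it ranged from -0.91 to -0.84 over 21 alternative fits, and 16 of them called it. Exons of Timeless overlap Gm26847 on the other strand in GENCODE M21, and the strand used for counting is not given in the sources used here.

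Of 55 S-phase genes tested, 1 passed the threshold (Timeless) and 30 were lower at an unadjusted p under 0.05, against 11.1% of all genes, with none higher. The list's median log2 fold change was -0.21, against 0.01 over all genes. Clspn, which encodes the checkpoint mediator claspin, was at 57.0, 47.5 and 56.2 CPM in ff and 38, 34.8 and 33.6 CPM in dcKO. Its log2 fold change was -0.59 (SE 0.09, edgeR adjusted p = 0.0505). Mcm2, a subunit of the replicative helicase, was at 240, 221 and 257 CPM in ff and 180, 190 and 191 CPM in dcKO (edgeR adjusted p = 0.076).

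Of 61 mitosis genes tested, 1 passed the threshold, and 59 of the 61 had negative fold changes. At an unadjusted p under 0.05, 40 (65.6%) were lower and 0 higher, against 11.1% and 8.11% of all genes. The median was -0.28. DESeq2 called 31 of the 61 and 11 of the 55 S-phase genes lower, against 5.11% of all genes. With limma-voom 6 and 2 were lower, against 0.835%. Neither tool called any of them higher, against 1.66% and 0.314% of all genes. Mki67, a marker of cycling cells, fell from 386, 401 and 403 CPM in ff to 289, 230 and 226 CPM in dcKO. Its log2 fold change was -0.68 (SE 0.10, edgeR adjusted p = 0.0481), and dcKO 2 lay between the ff libraries and the other dcKO libraries. Aspm, a spindle pole protein of progenitors, was at 89.5 to 106 CPM in ff and 71.2, 60.9 and 61.5 CPM in dcKO (edgeR adjusted p = 0.0505).

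The medians of both lists were also negative with dcKO 2 as the only dcKO library, at -0.23 for S phase and -0.27 for mitosis. In that fit, 7 of 55 S-phase genes and 14 of 61 mitosis genes were lower at an unadjusted p under 0.05, against 1.32% of all genes (0.575% were higher). Without ff 9 these counts were 27 and 39, against 11.8% of all genes. The summed levels were highest in ff 7, the only female library, at 5922 CPM for S phase and 8011 CPM for mitosis. In ff 9 and ff 4 the sums were 5391 and 4886 CPM for S phase and 7418 and 6715 CPM for mitosis, and in dcKO they were 4594 to 4723 and 5945 to 6146 CPM. With sex as a covariate the medians were -0.13 and -0.19, the nearest to 0 among 21 alternative fits for both lists.

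Promoters of cycling genes are known to share short motifs: E2F sites in S-phase genes, and CCAAT boxes with a cell cycle homology region (CHR) in mitosis genes. These were searched on both strands in the 250 bases before each RefSeq start in GRCm38.p6. The E2F letters were TTTCCCGC, TTTGGCGC, TTCCCGCC or TTGGCGGG, some of which overlap one another, and the CHR letters were TTTGAA or TTCGAA. E2F letters were in 15 of 50 windows of the S-phase list, against 3.38% of all 32851 windows. CCAAT was in 66.7% of 57 windows of the mitosis list, against 33.8% of all windows, and CHR letters were in 40.4% against 17.1%. CCAAT was also in 58% of 50 S-phase windows and 54.2% of 24 intermediate progenitor windows, so it was not particular to the mitosis list. CHR letters were in 14% and 0% of these windows. Among the 22 of 27 lower genes with a window, E2F letters were in 3, CCAAT in 8 and CHR letters in 3. A gene was counted with a match in any of its windows, and some genes had several. These counts can therefore not be set against the shares of windows. A match of letters is a description and not a binding site.

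The windows of 3 of the genes above are printed because their lists moved together, with E2F, CCAAT and CHR letters in capitals on either strand (CCAAT reads ATTGG on the other). They are those of Mki67 (chr7:135716380-135716629, minus strand, GRCm38.p6), Aspm (chr1:139454523-139454772, plus strand) and Clspn (chr4:126556730-126556979, plus strand).
Mki67: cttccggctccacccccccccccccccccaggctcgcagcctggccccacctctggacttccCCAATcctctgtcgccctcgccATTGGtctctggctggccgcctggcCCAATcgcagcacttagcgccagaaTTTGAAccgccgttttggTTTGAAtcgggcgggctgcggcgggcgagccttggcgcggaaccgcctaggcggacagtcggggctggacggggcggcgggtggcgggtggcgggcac
Aspm: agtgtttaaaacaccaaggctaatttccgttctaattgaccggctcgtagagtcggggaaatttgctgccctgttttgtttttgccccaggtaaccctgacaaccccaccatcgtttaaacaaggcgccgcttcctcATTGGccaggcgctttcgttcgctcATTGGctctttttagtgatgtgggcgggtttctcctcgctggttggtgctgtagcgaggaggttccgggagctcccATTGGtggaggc
Clspn: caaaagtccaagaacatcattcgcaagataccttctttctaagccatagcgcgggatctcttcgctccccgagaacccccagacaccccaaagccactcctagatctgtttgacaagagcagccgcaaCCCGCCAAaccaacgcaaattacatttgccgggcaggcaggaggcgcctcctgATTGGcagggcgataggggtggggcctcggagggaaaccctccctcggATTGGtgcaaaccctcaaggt
The window of Mki67 held 3 CCAAT and 2 CHR matches, that of Aspm 3 CCAAT matches, and that of Clspn 1 E2F and 2 CCAAT matches. Not every gene described above had the letters of its list. The window of Timeless, not printed, held 0 E2F, 0 CCAAT and 0 CHR matches. That of Mcm2, also not printed, held 0 E2F, 1 CCAAT and 1 CHR matches.

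Genes of intermediate progenitors were lower as a list. Eomes, the transcription factor that defines these cells, was at 154, 145 and 139 CPM in ff 9, ff 4 and ff 7 and at 91.8, 85.3 and 83.9 CPM in dcKO 2, dcKO 6 and dcKO 10. All dcKO libraries lay well under the ff libraries, dcKO 2 included. The log2 fold change was -0.74 (SE 0.07, edgeR adjusted p = 0.014), and 15 of 21 alternative fits called it. Eomes was the 1 call among 24 genes of the list (chr9:118478212-118486132, plus strand). All 24 fold changes were negative, 12 (50%) with an unadjusted p under 0.05 against 11.1% of all genes, and the median was -0.28. With dcKO 2 alone the median was also -0.28, with 9 of 24 lower at an unadjusted p under 0.05 against 1.32% of all genes. DESeq2 called 12 of the 24 lower, against 5.11% of all genes, and limma-voom 5, against 0.835%.

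Other members of that list fell short of the threshold. Neurod6, a transcription factor of newborn excitatory neurons, was at 181, 153 and 120 CPM in ff and 84.7, 70.0 and 70.4 CPM in dcKO (log2 fold change -1.0, SE 0.15, edgeR adjusted p = 0.0523). Sstr2, a somatostatin receptor, and Rhbdl3 had log2 fold changes of -0.63 (SE 0.10) and -0.48 (SE 0.08), both with edgeR adjusted p = 0.0505. Neurog2, a proneural factor upstream of Eomes, was at 218, 167 and 176 CPM in ff and 138, 152 and 154 CPM in dcKO (edgeR adjusted p = 0.147). The groups of each of these 4 genes did not overlap.

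Apical progenitor markers showed a smaller shift. Of 33 tested, 1 passed the threshold, 11 (33.3%) were lower and 1 (3.03%) higher at an unadjusted p under 0.05, against 11.1% and 8.11% of all genes, and the median was -0.17. DESeq2 called 4 lower and 1 higher, against 5.11% and 1.66% of all genes, and limma-voom 1 lower, against 0.835%. The call was Rlbp1, which encodes a retinaldehyde-binding protein of radial glia, at 34.9, 34.1 and 29.7 CPM in ff and 21.1, 18.2 and 18.6 CPM in dcKO (log2 fold change -0.76, SE 0.10, edgeR adjusted p = 0.0468). In the list, 27 fold changes were negative and 6 positive. Gli3 and Notch1, with the next lowest p, had log2 fold changes of -0.42 (SE 0.10, edgeR adjusted p = 0.086) and -0.39 (SE 0.10, edgeR adjusted p = 0.1015). The core progenitor factors Pax6 and Sox2 had log2 fold changes of -0.03 (SE 0.06, edgeR adjusted p = 0.862) and -0.13 (SE 0.11, edgeR adjusted p = 0.527). The markers were thus unequal: Fabp7, a fatty acid-binding protein of radial glia, was at 376, 311 and 340 CPM in ff and 416, 410 and 428 CPM in dcKO (edgeR adjusted p = 0.117). The list's median was -0.08 without ff 9 and -0.12 with dcKO 2 alone.

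Deep-layer neuron genes had fold changes of both signs, and more were lower than higher among those with a low p. Tbr1, the transcription factor of preplate and layer 6 neurons, was at 210, 170 and 163 CPM in ff and 117, 97.2 and 97.4 CPM in dcKO (log2 fold change -0.79, SE 0.11, edgeR adjusted p = 0.0474). Fezf2, which specifies layer 5 projection neurons, was at 59.3, 53.6 and 55.5 CPM in ff and 39.6, 36.4 and 37.2 CPM in dcKO (log2 fold change -0.57, SE 0.07, edgeR adjusted p = 0.0468). These were the 2 calls among 34 genes, of which 17 had negative and 17 positive fold changes, with a median of 0. At an unadjusted p under 0.05, 10 (29.4%) were lower and 4 (11.8%) higher, against 11.1% and 8.11% of all genes. DESeq2 called 7 lower and 1 higher, against 5.11% and 1.66% of all genes. With limma-voom 4 were lower and 0 higher, against 0.835% and 0.314%. Sox5, a regulator of deep-layer identity, and Slc17a7, a vesicular glutamate transporter, had log2 fold changes of -0.77 (SE 0.13) and -0.72 (SE 0.12), both with edgeR adjusted p = 0.0523.

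General neuronal genes held no edgeR call. None of 30 pan-neuronal genes passed the threshold with edgeR, and the median was 0.04. At an unadjusted p under 0.05, 8 (26.7%) were higher and 4 (13.3%) lower, against 8.11% and 11.1% of all genes. DESeq2 called 2 higher and 1 lower, against 1.66% and 5.11% of all genes, and limma-voom 1 higher, against 0.314%. Stmn3, a microtubule regulator of neurons, was at 212, 198 and 198 CPM in ff and 262, 257 and 269 CPM in dcKO (edgeR adjusted p = 0.0587). Of 16 Cajal-Retzius genes, which mark neurons born mostly at the borders of the cortex, 0 passed with edgeR, 4 (25%, against 8.11% of all genes) were higher and 0 (against 11.1%) lower at an unadjusted p under 0.05, and the median was 0.16 (0.23 with dcKO 2 alone). DESeq2 called 2 of the 16 higher, against 1.66% of all genes, and limma-voom 0, against 0.314%.

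**Figure D3:**
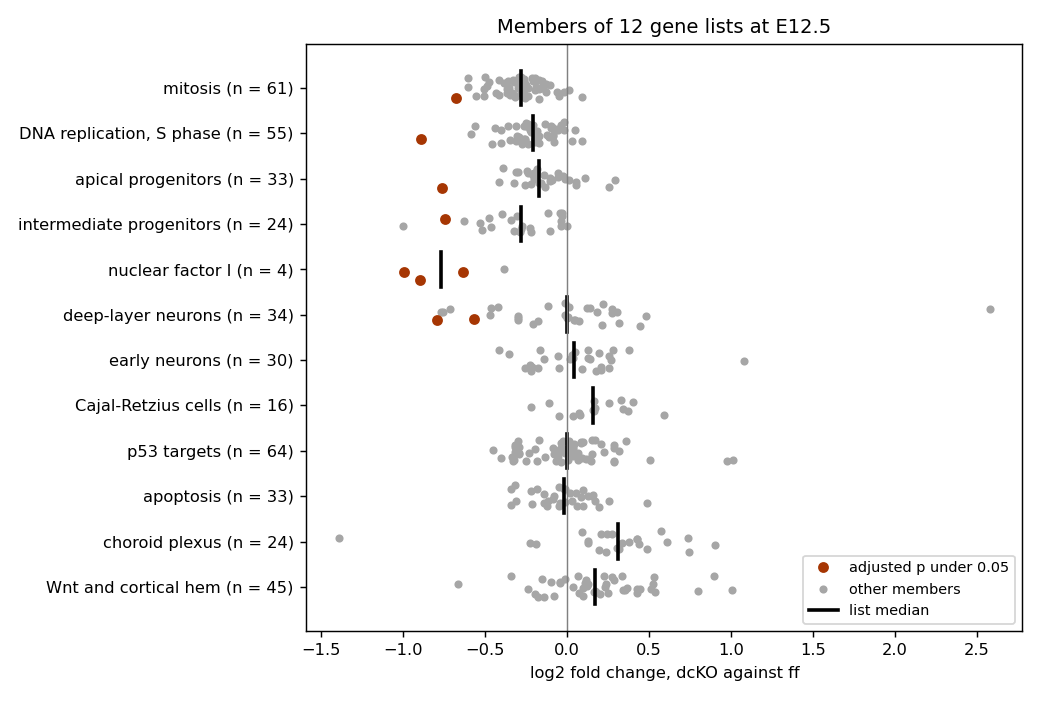
log2 fold change, dcKO against ff (horizontal axis), of the tested members of 12 gene lists (points, vertical position within a list is random), with the list median as a black bar and genes with adjusted p under 0.05 in brown. Mitosis (median -0.28), S-phase (-0.21) and intermediate progenitor genes (-0.28) lie mostly left of 0, and p53 targets (median 0) on both sides; the point at 2.58 is Cplx3, at or below 0.35 CPM in every library.

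The nuclear factor I family, which drives the later switch of progenitors towards glia and the maturation of cortical neurons, had 3 of its 4 members among the lower genes. Nfib (chr4:82290173-82705750, minus strand) was at 359, 299 and 276 CPM in ff and 178, 146 and 142 CPM in dcKO (log2 fold change -1.0, SE 0.12, edgeR adjusted p = 0.0385). Nfix was at 226, 204 and 173 CPM in ff and 124, 99.6 and 98.1 CPM in dcKO (log2 fold change -0.90, SE 0.12, edgeR adjusted p = 0.0474). Nfia was at 120, 114 and 108 CPM in ff and 80.5, 69.6 and 69.8 CPM in dcKO (log2 fold change -0.63, SE 0.08, edgeR adjusted p = 0.0468).

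In all 3 genes ff 9 was the highest library and ff 7 the lowest of the ff group, and dcKO 2 stood above the other dcKO libraries. Nfic was at 34.3, 47.4 and 36.9 CPM in ff and 34.2, 27.3 and 30.4 CPM in dcKO (edgeR adjusted p = 0.17). The family's median ranged from -0.86 to -0.59 over 21 alternative fits and was -0.59 with dcKO 2 alone. Exons of Nfia and Nfix overlap genes on the other strand. The transcripts are long (median 7676.5 nt), and the trend with length is described below.

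Sall1, a zinc finger transcription factor of progenitors, was at 137, 153 and 141 CPM in ff and 93.0, 83.6 and 85.2 CPM in dcKO (log2 fold change -0.72, SE 0.07, edgeR adjusted p = 0.0211). Slc30a10, which exports manganese from cells, had the most negative fold change of the protein-coding calls: 35.3, 33.5 and 23.4 CPM in ff against 12, 12.6 and 11.6 CPM in dcKO. The ff libraries were spread and the dcKO libraries were alike (log2 fold change -1.33, SE 0.15, edgeR adjusted p = 0.029). It was the 1 call among 25 zinc and manganese transporters, whose median was 0.02.

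The next 3 lower calls belonged to none of the lists. Celsr1, a cadherin of planar cell polarity, was at 177, 194 and 176 CPM in ff and 122, 92.1 and 97.1 CPM in dcKO (log2 fold change -0.82, SE 0.11, edgeR adjusted p = 0.0468). Msn, which links actin to the membrane, was at 132, 127 and 138 CPM in ff and 95.4, 97.0 and 96.3 CPM in dcKO (log2 fold change -0.46, SE 0.06, edgeR adjusted p = 0.0468). Plekha7, a protein of adherens junctions, had a log2 fold change of -0.59 (SE 0.08, edgeR adjusted p = 0.0468).

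Cav1, the coat protein of caveolae and a marker of vessels, was at 22.1, 26.3 and 21.5 CPM in ff and 12.2, 12 and 12.5 CPM in dcKO (log2 fold change -0.94, SE 0.11, edgeR adjusted p = 0.029). The other vessel markers did not move with it: Cav1 was the 1 call among 26 endothelial and pericyte genes, the list's median was -0.02, and its summed level was 606 to 612 CPM in ff and 579 to 618 CPM in dcKO.

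Tti1, Eif4b and Pfas were further lower calls outside the lists. Tti1, part of a complex that stabilises ATM- and mTOR-type kinases, was at 44.4, 42.2 and 42.5 CPM in ff and 29.4, 28.0 and 26.8 CPM in dcKO (log2 fold change -0.61, SE 0.07, edgeR adjusted p = 0.0342). Eif4b, a translation initiation factor, was at 406, 417 and 408 CPM in ff and 301, 306 and 303 CPM in dcKO (log2 fold change -0.44, SE 0.06, edgeR adjusted p = 0.0468). Pfas, an enzyme of purine synthesis, had a log2 fold change of -0.50 (SE 0.07, edgeR adjusted p = 0.0474). In each of the 3 genes dcKO 2 was close to the other dcKO libraries.

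The other lower calls, all with edgeR adjusted p between 0.029 and 0.0481, were Ston2 (endocytosis, -0.78), Ttc39b (-1.20), Asxl2 (chromatin, -0.79), Siah3 (-0.89), 2900026A02Rik (-0.76), the long non-coding RNAs Dubr (-0.81) and AU020206 (-0.87), and the unannotated Gm56577 (-2.06), given as log2 fold changes. Their SEs ranged from 0.09 for Ston2 to 0.29 for Gm56577, which was at 2.41 to 3.11 CPM in ff and 0.467 to 0.873 CPM in dcKO.

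The 7 higher genes belonged to no list in common. A930005G22Rik, a transcript of uncertain coding status on chr5, was at 0.827, 0.897 and 1.13 CPM in ff and 3.56, 3.65 and 4.16 CPM in dcKO (log2 fold change 1.95, SE 0.21, edgeR adjusted p = 0.029). Gm57367 was at 1.86, 2 and 3.19 CPM in ff and 7.16, 7.31 and 6.85 CPM in dcKO (log2 fold change 1.54, SE 0.22, edgeR adjusted p = 0.0474). Both were low in ff and more than 2 times as high in each dcKO library as in the highest ff library.

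The 5 protein-coding genes rose less. With a correction for transcript length, described below, Nptx2, Rac3 and Zfp580 were not called. Nptx2, a neuronal pentraxin of synapses, was at 12, 8.94 and 10.9 CPM in ff and 19.0, 19.1 and 18.4 CPM in dcKO (log2 fold change 0.86, SE 0.12, edgeR adjusted p = 0.0474). Rac3, a small GTPase of neurons, was at 30.2, 36.5 and 34.5 CPM in ff and 49.3, 50.3 and 50.1 CPM in dcKO (log2 fold change 0.55, SE 0.08, edgeR adjusted p = 0.0481). Uros, an enzyme of heme synthesis, was at 17.6 to 19.4 CPM in ff and 27.7, 27.8 and 28.4 CPM in dcKO (log2 fold change 0.59, SE 0.08, edgeR adjusted p = 0.0468).

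Uros was the 1 call among 12 heme synthesis genes, whose median was 0.01. Tk2, the mitochondrial thymidine kinase, and Zfp580, a zinc finger gene, had log2 fold changes of 0.46 (SE 0.07) and 0.59 (SE 0.08), with edgeR adjusted p of 0.0474 and 0.0468.

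Target genes of p53 did not move as a list. Of 66 genes, 64 were tested and 0 passed the threshold with edgeR (4 higher and 10 lower at an unadjusted p under 0.05, or 6.25% and 15.6%, against 8.11% and 11.1% of all genes). DESeq2 called 1 of them higher and 8 lower, against 1.66% and 5.11% of all genes, and limma-voom 0. As many fold changes were positive (32) as negative (32), and the median was 0. Cdkn1a, the cell cycle inhibitor that p53 induces, was at 17.8, 18.2 and 20.8 CPM in ff and 19.7, 21.2 and 22.7 CPM in dcKO (log2 fold change 0.15, SE 0.10, edgeR adjusted p = 0.448).

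Mdm2 and Ccng1, named like Cdkn1a as textbook targets after their values were seen, had log2 fold changes of 0.01 (SE 0.07, edgeR adjusted p = 0.949) and 0.00 (SE 0.07, edgeR adjusted p = 0.987). The members with the lowest p were Psrc1 and Gtse1, genes of the spindle and of G2 phase, Apaf1, the core of the apoptosome, and Pltp, with edgeR adjusted p from 0.0877 to 0.109. Among 33 apoptosis genes, 45 genes of the integrated stress response and 39 Notch pathway genes, 0 passed with edgeR, and the medians were -0.02, 0 and -0.01. At an unadjusted p under 0.05, 8.11% of all genes were higher and 11.1% lower. Of the apoptosis genes 1 (3.03%) was higher and 4 (12.1%) lower at that p, of the stress response genes 3 (6.67%) and 4 (8.89%), and of the Notch genes 1 (2.56%) and 8 (20.5%). DESeq2 called 3, 1 and 5 of them lower and none higher, against 5.11% and 1.66% of all genes, and limma-voom 0. Hey1, a Notch effector, was at 54.6, 58.2 and 57.0 CPM in ff and 44.5, 45.9 and 48.7 CPM in dcKO (edgeR adjusted p = 0.0893).

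Genes of the medial edge of the cortex and of neighbouring tissue tended to be higher, without calls from edgeR. Of 24 choroid plexus genes, 6 (25%) were higher and 1 (4.17%) lower at an unadjusted p under 0.05, against 8.11% and 11.1% of all genes. DESeq2 called 2 of them higher, against 1.66% of all genes, and limma-voom 2, against 0.314%. The median was 0.31 (0.24 with dcKO 2 alone). Without ff 9, 14 of the 24 were higher at that p, against 9.76% of all genes. Their summed level was 720, 881 and 854 CPM in ff and 963, 988 and 1022 CPM in dcKO, so the sums did not overlap. Otx2, a transcription factor of choroid plexus and caudal forebrain, was at 40.7, 41.2 and 43.2 CPM in ff and 51.8, 57.3 and 60.9 CPM in dcKO (log2 fold change 0.44, SE 0.08, edgeR adjusted p = 0.0634). It was highest in dcKO 6 and dcKO 10, which held eye RNA, and its log2 fold change was 0.31 with dcKO 2 alone. The part of eye tissue in its difference was not tested.

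Of 45 Wnt and cortical hem genes, 9 (20%) were higher and 2 (4.44%) lower at an unadjusted p under 0.05, against 8.11% and 11.1% of all genes, and the median was 0.17 (0.08 without ff 9). DESeq2 called 4 higher and 1 lower, against 1.66% and 5.11% of all genes, and limma-voom 0. Lmx1a, a factor of the hem and roof plate, was at 6.61, 13.3 and 7.25 CPM in ff and 19.5, 19.9 and 17.4 CPM in dcKO (edgeR adjusted p = 0.101). Like the caudal marker genes, Lmx1a was higher in ff 4 than in the other ff libraries, and the part of caudal tissue in its difference was not tested. Of 26 thalamus and hypothalamus genes the median was 0.28, with sums of 521 to 772 CPM in ff and 755 to 800 CPM in dcKO, where ff 4 lay within the dcKO range.

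Lists of other cells showed where libraries differed within a genotype. Erythroid genes had a median of 0.21, which was 0 with dcKO 2 alone, and sums of 3297 to 3994 CPM in ff, 4121 in dcKO 2 and 4882 and 5073 in dcKO 6 and dcKO 10. Mesenchyme genes summed to 754 CPM in ff 9 and 1952 to 2829 CPM in the other 5, and the median turned from 0.11 to -0.14 without ff 9. Microglia genes had a median of 0.21, and ventral telencephalon genes, which lie outside the driver's lineage, had a median of 0.03 (0.13 with dcKO 2 alone). None of the genes of these 4 lists passed the threshold with edgeR, with 3 higher and 0 lower, 1 and 0, 3 and 0, and 4 and 3 at an unadjusted p under 0.05, where 8.11% of all genes were higher and 11.1% lower. DESeq2 called 2 erythroid genes higher and 1 ventral gene higher and 2 lower, and limma-voom 0. Of all genes, DESeq2 called 1.66% higher and 5.11% lower.

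Replication-dependent histone genes had a median of 0.66 over 38 genes, none with an adjusted p under 0.05 by edgeR. At an unadjusted p under 0.05, 16 (42.1%) were higher and 1 (2.63%) lower, against 8.11% and 11.1% of all genes. DESeq2 called 3 higher, against 1.66% of all genes, and limma-voom 2, against 0.314%. Their summed level did not follow, at 605 to 787 CPM in ff and 619 to 651 CPM in dcKO. H4c2, with the lowest p, was at 0.534 to 0.62 CPM in ff and 1.33 to 2.25 CPM in dcKO. Most of these messages lack a poly(A) tail, so libraries made from polyadenylated RNA hold a small share of them. Their transcripts are short, with a median of 715.5 nt, against 3158.5 nt over all tested genes.

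Transcript length went with the fold change across genes. Over 17448 genes with a length, the median log2 fold change was 0.22 in the shortest of 10 bins (median length 788 nt) and -0.22 in the longest (8132 nt), and the rank correlation of length and fold change was -0.41 as a description across genes. The rank correlation of length with each library's deviation from the mean was 0.42 in ff 4, 0.14 in ff 9, 0.03 in ff 7, -0.02 in dcKO 2, and -0.39 and -0.45 in dcKO 6 and dcKO 10. The median length was 4919 nt for the lower calls and 2046.5 nt for the higher ones.

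**Figure D4:**
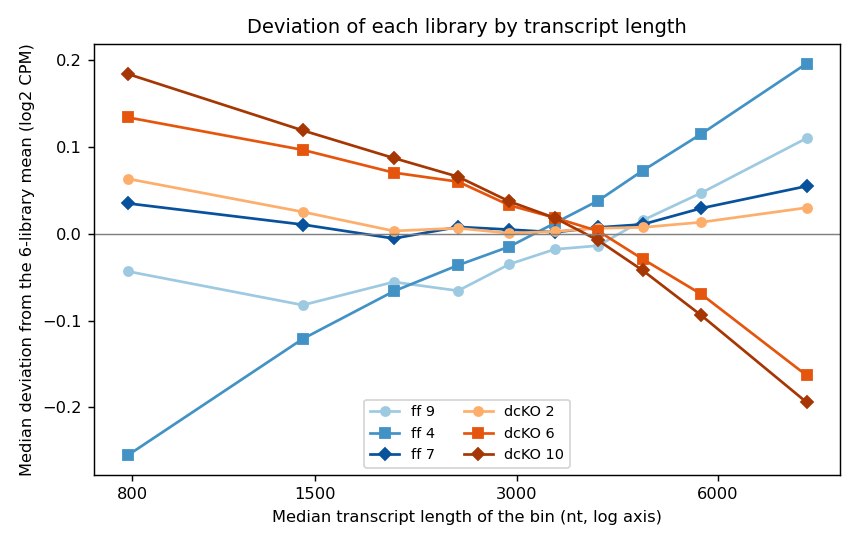
Median deviation from the 6-library mean in log2 CPM (vertical axis) by transcript length in 10 bins (log horizontal axis), with 1 line per library. Libraries dcKO 6 and dcKO 10 fall with length and ff 4 rises, while dcKO 2 and ff 7 are nearly level.

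With a correction for length and GC content, edgeR called 199 of 17448 genes (1.14%), of which 176 were lower (1.01%) and 23 higher (0.132%). Of the 32 calls with a length, 26 were called again. Those not called again were Nfix, Plekha7 and Pfas among the lower genes and Rac3, Nptx2 and Zfp580 among the higher. With the correction, the log2 fold change of Rac3 moved from 0.55 to 0.33 and that of Zfp580 from 0.59 to 0.39. The S-phase and mitosis lists then had 7 lower calls each: Mcm2, Mcm7, Tipin, Timeless, Clspn, Rrm2 and Tk1 (helicase, fork protection and nucleotide supply), and Mki67, Plk1, Ttk, Hmmr, Ncaph, Ncapg2 and Ckap2 (spindle, checkpoint kinase and condensin genes). The intermediate progenitor list had 4 (Eomes, Sstr2, Rhbdl3 and Igsf8) and the deep-layer list 4 (Tbr1, Fezf2, Sox5 and Slc17a7). Sbno1 was among the lower calls, with a log2 fold change of -0.35. Nfib (-0.78) and Nfia were calls, and Nfia had moved from -0.63 to -0.40. Nfix was at -0.86 with an edgeR adjusted p of 0.0533, against -0.90 and 0.0474 without the correction.

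With that correction the medians were -0.20 for S phase, -0.27 for mitosis, -0.30 for intermediate progenitors, 0.29 for choroid plexus and -0.06 for p53 targets, against -0.02 over all genes. The 3 lower calls among p53 targets were Gtse1, Psrc1 and Ckap2, which act in G2 phase and at the spindle. The ribosomal protein list turned from a median of 0.08 to -0.11, and the median of the histone list became 0.47.

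In the authors' deposited table, 1247 of 12200 genes with an adjusted p passed 0.05 (10.2%), 325 of them higher and 922 lower. Of the 34 genes above, 32 were among them, 2 had no adjusted p there, and all 34 had the same direction. Of the 1241 genes called in the authors' deposited table that were also tested here, 1239 had an unadjusted edgeR p under 0.05. The deposited table thus holds many more calls at the same threshold, from the same 6 libraries.

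The E18.5 cortex libraries, which the choice of the 34 genes did not use, gave a mixed picture. Library dcKO 2 of E18.5 held 5.98 M expected counts, and the other E18.5 libraries held 48.6 to 82 M. Of 33 genes tested at E18.5, 22 had the same direction as at E12.5. With edgeR, 14 were called in that direction and 8 in the opposite one, where 15.6% of 17974 genes were called higher, 16.6% lower and 32.2% in all. Among the 14 were Emx1, the family members Nfia, Nfib and Nfix, Fezf2, Tbr1, Rlbp1, Tti1 and Eif4b. Emx1 was at 26.4 ± 1.26 CPM (SD, n = 4) in ff and 15.1 ± 0.883 CPM in dcKO, a log2 fold change of -0.81 (SE 0.07, edgeR adjusted p = 8.31e-06). A930005G22Rik was at 0.311 ± 0.0752 CPM in ff and 2.32 ± 0.391 CPM in dcKO (log2 fold change 2.87, SE 0.25, edgeR adjusted p = 8.31e-06). Sbno1 was at 71.9 to 74.7 CPM in ff and 67.0 to 76.7 CPM in dcKO, with overlap (log2 fold change -0.03, SE 0.05, edgeR adjusted p = 0.682).

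The 8 genes called in the opposite direction were Eomes, Sall1, Slc30a10, Ston2, Celsr1, Msn, Mki67 and Rac3. Eomes was at 45.2 to 54.7 CPM in ff and 58.4 to 65.3 CPM in dcKO at E18.5 (log2 fold change 0.32, SE 0.07, edgeR adjusted p = 0.00302). Mki67 was at 54.6 to 83.2 CPM in ff and 99.7 to 111 CPM in dcKO (log2 fold change 0.63, SE 0.11, edgeR adjusted p = 0.00241). Rac3, higher in dcKO at E12.5, was at a mean of 167 ± 19.6 CPM (SD, n = 4) in ff and a mean of 113 ± 8.63 CPM (SD, n = 4) in dcKO (log2 fold change -0.56, SE 0.08, edgeR adjusted p = 0.000346). The groups did not overlap in these 3 genes, and the share of all genes without overlap at E18.5 was not counted. A test of the difference between the stages called 22 of the 34 genes and 16.5% of 19327 genes. The E12.5 libraries that chose the 34 genes also entered this test, and such a choice favours differences away from the E12.5 sign. The count of 22 can therefore not be set against that share. Tissue and stage differ together between the 2 sets of libraries.

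**Figure D5:**
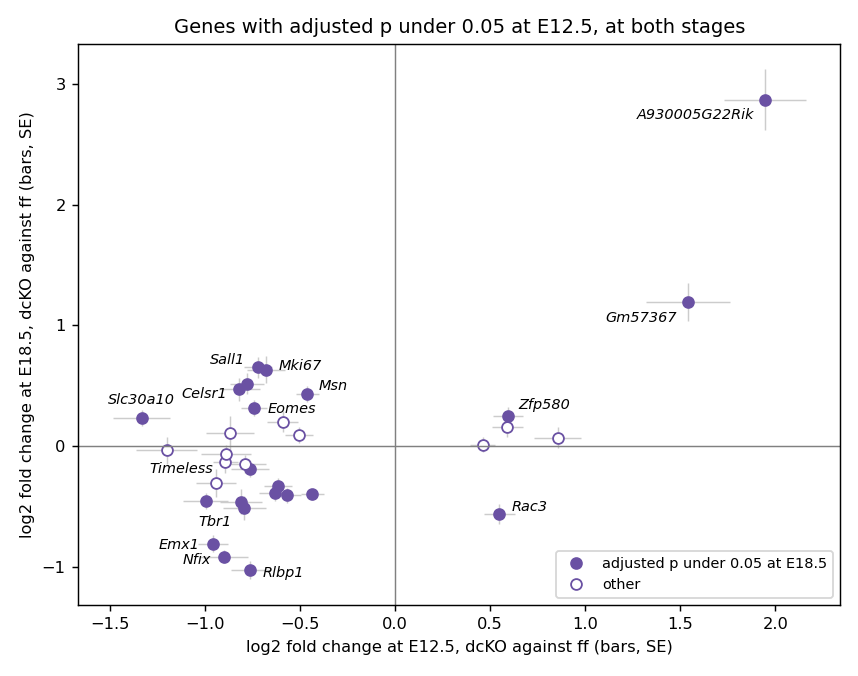
log2 fold change, dcKO against ff, at E12.5 (horizontal axis) and E18.5 (vertical axis) with SE bars for the 33 genes called at E12.5 and tested at both stages; filled points had an adjusted p under 0.05 at E18.5. Eomes, Sall1, Celsr1, Msn, Mki67 and Slc30a10 lie left of 0 and above it, while Emx1, Nfix and Rlbp1 lie below 0 at both stages.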

How the data were processed

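Per the labels, total RNA came from RNeasy columns, and 1.0 ug of it went into each strand-marking TruSeq library of polyadenylated RNA. Trim Galore, STAR, RSEM and DESeq2 are named without versions, per the submitters' processing notes. The genome build, annotation and counting strand are not given in the sources used here. The expected counts and the TPM are RSEM output per gene, deposited without further scaling. The log2 fold changes, their standard errors (entered as a score) and the p-values of the authors' deposited table come from DESeq2, per the file headers. Library names in the sample descriptions belong to other samples, so groups and numbers were read from the column names, which match the titles.

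Counts were rounded to whole numbers. The tools were edgeR 4.0.16 in R 4.3.3 (filterByExpr, TMM scaling, robust quasi-likelihood F test), DESeq2 1.42.0 and limma 3.58.1. Benjamini-Hochberg adjustment ran over all genes of a fit, and an adjusted p under 0.05 was a call. CPM were scaled by TMM. Each stage had its own fit, and the difference between stages came from 1 fit of 4 groups. With 3 libraries a group, ff 9 at 4.92 M counts has the widest counting error.

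The members, the 30 gene lists (950 symbols, 930 tested) and the tests were chosen with earlier results of these data known. Genes named were Sbno1, Trp53 and Emx1, all calls, and up to 4 members of each list with the lowest p. Pax6, Sox2, Neurog2, Emx2, Cdkn1a, Mdm2, Ccng1 and Cplx3, and list members called only with the length correction, stand outside that rule. Lists are described by counts and medians and were not tested as sets. The 6 sets of other tissues were chosen after the data were seen. Alternatives were other scalings, tests, filters and covariates, a spline correction for transcript length and GC content (GENCODE M21, 5 degrees of freedom each), thinning, and each library left out. The scripts were tested on simulated data. Lengths, coordinates and exon overlaps come from GENCODE M21 (GRCm38) by gene ID, and promoters from RefSeq, matched by symbol.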

Additional observations from a re-analysis of the deposited data

Results flagged for a closer look

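For 22 of the 34 genes called at E12.5, the log2 fold change at E18.5 differed from that at E12.5 by a direct test of the difference (edgeR, 1 fit of 4 groups, adjusted over 19327 genes, of which 16.5% were called). Values are E18.5 minus E12.5. The E12.5 libraries that chose the 34 genes are part of this fit, and that choice favours differences away from the E12.5 sign. The count of 22 can therefore not be set against the share of all genes. Among genes lower at E12.5 the differences were 1.51 for Slc30a10, 1.33 for Sall1, 1.27 for Mki67, 1.26 for Ston2, 1.24 for Celsr1, 1.12 for Ttc39b and 1.02 for Eomes, with edgeR adjusted p from 3.2e-05 to 0.0016. They were 0.93 for AU020206, 0.85 for Msn, 0.78 for Siah3, 0.75 for Plekha7 and 0.72 for Timeless, with edgeR adjusted p from 5.5e-05 to 0.0034. They were 0.6 for both Cav1 and Asxl2, 0.55 for Pfas, 0.54 for 2900026A02Rik and 0.49 for Nfib, with edgeR adjusted p from 0.0022 to 0.022. Among genes higher at E12.5 the differences were -1.15 for Rac3, -0.83 for Nptx2, -0.49 for Tk2, -0.47 for Uros and -0.38 for Zfp580, with edgeR adjusted p from 0.00012 to 0.026. Emx1, Nfix, Nfia, Tbr1, Fezf2, Rlbp1, Tti1, Eif4b and Dubr had no such call.

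In 66 groups of 4 E18.5 libraries, 2 held a library far from the other 3 by a gap test, and chance gives about 1 in 20 groups. Plekha7 was at 11.8 CPM in E18.5 ff 17 and 13.2 to 13.3 CPM in the other ff libraries. Siah3 was at 28.1 CPM in E18.5 dcKO 12 and 23.9 to 24.5 CPM in the other dcKO libraries.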

How the results depend on the processing

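The number of calls depended strongly on the processing, and the cause was not tested. Against 34 calls (7 higher, 27 lower), DESeq2 size factors gave 56 (11 and 45), the DESeq2 Wald test 1209 (297 and 912), limma-voom 205 (56 and 149), and limma-voom with sample quality weights 1483 (376 and 1107). limma on log2(TPM + 1) gave 1 (0 and 1), with 2868 genes at an unadjusted p under 0.05. No filter gave 244 (43 and 201), a mean of at least 1 CPM 9 (1 and 8), and 1 fit of all 14 libraries 1079 (345 and 734, or 32% higher against 20.6%). Sex as a covariate gave 2 (0 and 2), male libraries alone, which is the fit without ff 7, 6 (1 and 5), the length and GC correction 199 (23 and 176), and thinned counts 146 (22 and 124). Leaving out 1 library gave 0 to 571 calls, 0 to 76 higher and 0 to 495 lower: 71 without ff 9 (35.2% higher), 77 without ff 4 (58.4% higher), 6 without ff 7, 571 without dcKO 2 and 0 without dcKO 6 or without dcKO 10. With dcKO 6 and dcKO 10 summed, and with dcKO 2 as the only dcKO library, both chosen after seeing the data, there were 0 calls, 0 higher and 0 lower by edgeR. In the latter fit the lone dcKO sample is assumed to vary like the ff group. All 34 genes had their sign in each fit that tested them, which shared the libraries that chose them. Among the other genes named by the rule, 4 values changed sign (genes named outside the rule were not followed through the alternatives): Urod at -0.008 and Rpl26 at -0.062 with the length and GC correction, Trp73 at -0.032 without ff 4 (up to 0.138 with another library left out), and Slc22a6 at -0.361 with dcKO 2 alone. The median of all genes stayed between -0.02 and 0.06. Of the E18.5 calls in the same direction there were 12 to 15 under DESeq2, limma-voom and with each E18.5 library left out, against 14. No paired analysis was possible because the E12.5 groups share no number.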
